A study of Mus musculus with 15 samples.

Results

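The genes described here are the cyclins and cyclin-dependent kinase (CDK) inhibitors that act in the G1 phase of the cell cycle. They comprise the D cyclins Ccnd1, Ccnd2 and Ccnd3, the E cyclins Ccne1 and Ccne2, the CIP/KIP inhibitors Cdkn1a and Cdkn1b, and the INK4 inhibitors Cdkn2a, Cdkn2b and Cdkn2c. They are 10 of the 29072 gene symbols in the deposited table, each was found there by its symbol, and each was represented by its transcript line with the highest mean over the 15 libraries. All 10 were among the 13869 genes tested, which had at least 0.5 RPKM (reads scaled to transcript length and library depth) in at least 3 libraries.

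The libraries came from preadipocytes, cells that can become fat cells, which had been isolated from brown fat between the shoulder blades of 129SvEv mice (stromal-vascular fraction) and immortalised with SV40 large T antigen. There were 5 groups of 3 libraries: controls with no agent, FGF1, FGF8b and FGF9 (secreted fibroblast growth factors, each at 5.56 nM over 48 h), and FGF8b combined with BAY-876, which blocks the glucose carrier GLUT1 and was used at 2 µM. Heparin, a cofactor of FGF binding to receptors, was present at 1 µg/ml with every FGF according to the series text, and the sample labels name it beside FGF9 only. Controls are labelled with no agent, and their heparin and time are not stated. The labels do not say whether replicates were separate cultures, so p-values measure only the spread between these libraries. Depth, worked out from the steps between the deposited values and not stated by the labels, was 27.01 to 42.64 M reads per library. All 12 preadipocyte and fibroblast markers were present in control cells, and the skeletal muscle regulators Myod1, Myog and Myf5 were at 0 in every library.

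In textbook accounts, growth factor signals raise the D cyclins, which activate CDK4 and CDK6, and these kinases phosphorylate the retinoblastoma protein so that E2F factors switch on the E cyclins and the genes of DNA synthesis. INK4 inhibitors bind CDK4 and CDK6, whereas CIP/KIP inhibitors bind cyclin-CDK complexes more broadly. The SV40 large T antigen binds the retinoblastoma proteins and p53 and inactivates them, and all 5 groups carried it, which limits these cells as a model of G1 control. Cell number, cell cycle phase and protein were not analysed here. Transcript levels in bulk RNA cannot tell apart fewer cells expressing a gene and less RNA per cell.

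Sequences bear on how the values below can be read. The first are the coding starts of the Cdkn2a transcripts, because this single locus encodes proteins from different first exons, p19ARF, which stabilises p53, and p16INK4a, a CDK4 and CDK6 inhibitor. The first 60 coding bases are shown from GENCODE vM21 on GRCm38, minus strand, with the start codon in capitals. The ARF first exon lies at chr4:89294334-89294653 and the INK4a first exon at chr4:89281986-89282192.
ARF: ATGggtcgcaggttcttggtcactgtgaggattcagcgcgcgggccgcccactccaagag
INK4a: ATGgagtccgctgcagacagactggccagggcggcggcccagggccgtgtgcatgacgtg
Both first exons join the same second exon, shown by 15 bases to each side of the junction with the second exon in capitals.
ARF junction: ggaatcctggaccagGTGATGATGATGGGC
INK4a junction: cgtaccccgattcagGTGATGATGATGGGC
The ARF first exon carries 190 coding bases, which leaves 1 base over after whole codons, and the INK4a first exon carries 126, which leaves 0, so the shared exon is read in different frames. A value for the whole gene therefore counts both messages.

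The second set are promoters of inhibitors that moved differently under treatment, given as the 250 bases before the start site from RefSeq on GRCm38.p6. They are the downstream Cdkn1a start (chr17:29093519-29093768, plus strand), Cdkn2b (chr4:89311033-89311282, minus strand) and the upstream Cdkn2c start (chr4:109666757-109667006, minus strand). Capitals mark matches to the searched motifs, on either strand: the cAMP response element TGACGTCA, the AP-1 site TGANTCA, the E-box CACGTG, the E2F site TTTNGCGC, the GC box GGGCGG, the TATA box TATAAA and the ATF4 element TGATGNAA.
Cdkn1a: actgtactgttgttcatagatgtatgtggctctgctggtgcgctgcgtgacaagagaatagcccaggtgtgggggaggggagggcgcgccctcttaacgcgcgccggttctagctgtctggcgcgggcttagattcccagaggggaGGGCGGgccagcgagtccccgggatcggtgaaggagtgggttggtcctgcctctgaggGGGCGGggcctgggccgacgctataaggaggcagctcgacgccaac
Cdkn2b: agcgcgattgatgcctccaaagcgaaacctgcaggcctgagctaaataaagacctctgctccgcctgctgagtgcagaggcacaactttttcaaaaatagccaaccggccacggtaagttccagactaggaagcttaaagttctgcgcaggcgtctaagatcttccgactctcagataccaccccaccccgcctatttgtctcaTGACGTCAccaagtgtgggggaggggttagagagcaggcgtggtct
Cdkn2c: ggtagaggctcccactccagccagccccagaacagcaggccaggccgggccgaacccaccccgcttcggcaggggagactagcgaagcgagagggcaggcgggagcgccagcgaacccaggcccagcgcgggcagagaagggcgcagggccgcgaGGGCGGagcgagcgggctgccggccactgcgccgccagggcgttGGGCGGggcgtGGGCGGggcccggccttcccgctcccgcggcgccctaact
Promoter entries matched 7 of the 10 genes, with 11 start sites in all, over windows of 250 bases before to 50 after the start. Cdkn2b alone among these 7 held the cAMP response element, starting at base -46, which 1.79% of 32851 promoters hold. GC boxes were found in at least 1 promoter of each of the 7 genes, where 35.7% of all promoters hold one. The INK4a promoter of Cdkn2a held a match to the searched E2F pattern at base -244, with the letters TTTAGCGC. That pattern, which allows any base at N, was found in 1.38% of all promoters. The downstream Cdkn2c promoter held an E-box, found in 7.15%. None of the motif matches overlapped another. A match is a run of letters and does not show that a factor binds there.

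Across the 10 genes, Cdkn2a had the highest mean level over all libraries (161 RPKM, above 96.8% of tested genes) and Ccne1 the lowest (11.8 RPKM, above 57.4%). The gap between the highest and lowest group mean was at least 1 on the log2(RPKM + 0.5) scale for 5 members (Ccnd1, Ccnd2, Cdkn1a, Cdkn1b and Cdkn2c), as it was for 27.8% of all tested genes. Ccnd1 had the widest gap among the members, 4.82, against a median of 0.66 over all tested genes. In a moderated F-test (limma) over control, FGF1, FGF8b and FGF9, 9 of 10 members passed an adjusted p of 0.05, where 73.7% of all tested genes did, and Cdkn2a did not (adjusted p = 0.818).

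**Figure D1:**
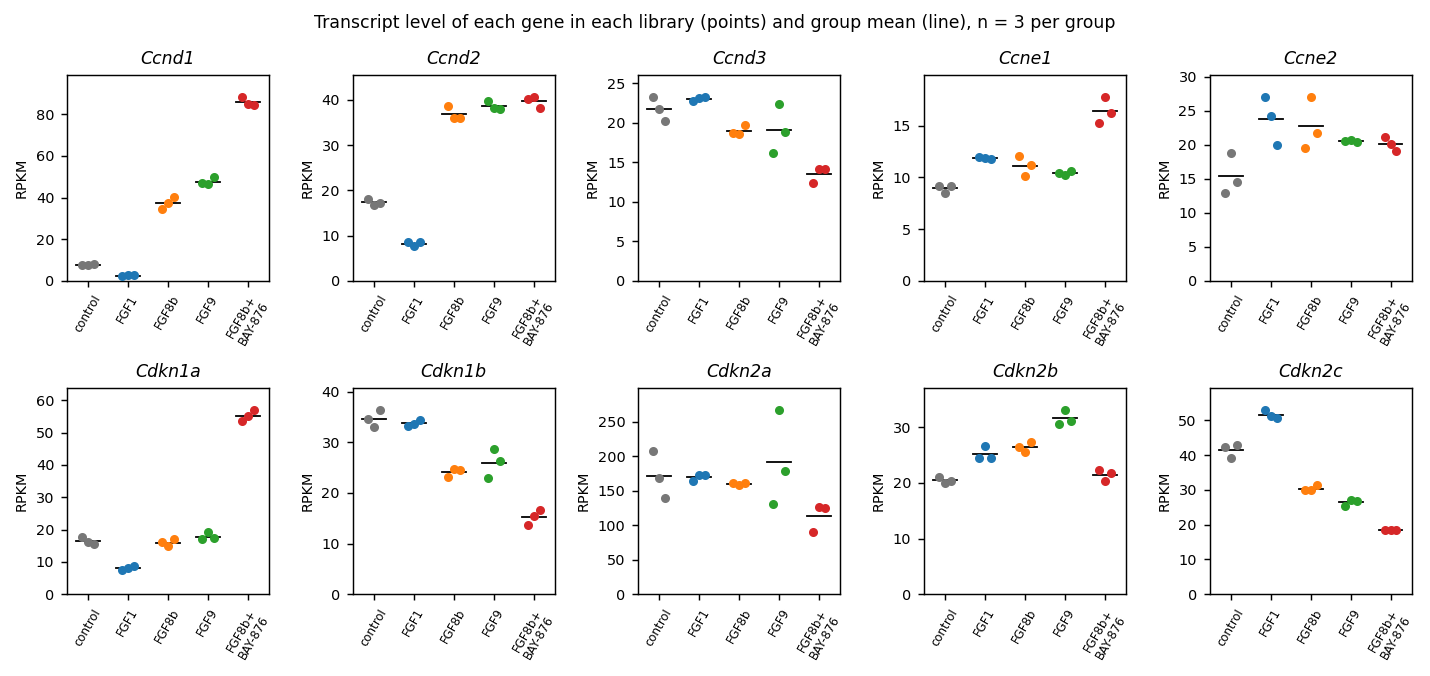
Level of each gene in RPKM (vertical axis, linear from 0) in each of the 15 libraries (points), with the group mean as a line, n = 3 per group. Ccnd1 runs from 2.16 RPKM in an FGF1 library to 88.4 in an FGF8b plus BAY-876 library, while the Cdkn2a points of FGF9 spread from 131 to 267.

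Ccnd1, the D cyclin best known as a target of growth factor signalling, fell with FGF1 and rose with FGF8b and FGF9. Its level was 7.70, 7.56 and 7.97 RPKM in the control libraries and 2.16, 2.93 and 2.65 RPKM in the FGF1 libraries. With FGF8b it was 34.5, 37.2 and 40.2 RPKM, with FGF9 46.8, 46.3 and 49.9 RPKM, and with FGF8b plus BAY-876 88.4, 84.8 and 84.6 RPKM. The 5 groups did not overlap, in the order FGF1, control, FGF8b, FGF9 and FGF8b plus BAY-876. The FGF1 values rest on 133 to 152 reads per library, the fewest for any member, and the highest mean was 33.3 times the lowest. On the log2(RPKM + 0.5) scale, which all changes below use, Ccnd1 fell by 1.43 (SE 0.08) with FGF1 (limma, adjusted p = 2.88e-09). It rose by 2.19 with FGF8b (adjusted p = 2.08e-12) and by 2.55 with FGF9 (adjusted p = 3.12e-13). BAY-876 added to FGF8b brought a further rise of 1.20 (SE 0.08, adjusted p = 6.80e-09). FGF9 and FGF8b differed by 0.35 (95% interval 0.18 to 0.52), which did not pass over all genes (adjusted p = 0.114), although voom on recovered reads gave an adjusted p of 0.01, and leaving out FGF1 replicate 1 gave 0.0401. All 8 transcript lines of Ccnd1 changed in the same direction in each of these comparisons. The gene lies at chr7:144929931-144939925 (GRCm38, minus strand), and 28.1% of its 31-base words are shared with LTO1, which overlaps it on the opposite strand. The library kit does not mark strand, so reads from that overlap cannot be told apart.

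Ccnd2, a second D cyclin, moved in the same directions over a smaller range. The control libraries held 18.1, 16.8 and 17.1 RPKM and the FGF1 libraries 8.53, 7.63 and 8.59 RPKM. FGF8b libraries held 38.7, 35.9 and 36.0 RPKM, FGF9 libraries 39.8, 38.2 and 38.0 RPKM, and FGF8b plus BAY-876 libraries 40.2, 40.7 and 38.3 RPKM. FGF1 lay below and the other 3 treatments above every control library, and those 3 overlapped one another. Ccnd2 fell by 1.03 (SE 0.06) with FGF1 (adjusted p = 2.69e-09), and rose by 1.07 with FGF8b (adjusted p = 2.20e-10) and by 1.14 with FGF9 (adjusted p = 9.23e-11). BAY-876 on top of FGF8b made a difference of 0.11 (95% interval -0.02 to 0.23) that did not pass (adjusted p = 0.127). That difference passed after trimmed-mean scaling (0.195, adjusted p = 0.0105) and after a correction for GC content (0.175, adjusted p = 0.0156). The 10 transcript lines of Ccnd2 went both ways in this comparison, 6 higher and 4 lower, between -0.13 and 0.29. For Ccnd1 the same contrast gave 1.20. The difference between Ccnd1 and Ccnd2 in this contrast was not tested.

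Ccnd3, the D cyclin with the narrowest range here, was lowest with BAY-876. Its control libraries held 23.3, 21.8 and 20.2 RPKM and its FGF1 libraries 22.7, 23.1 and 23.3 RPKM. With FGF8b it was 18.7, 18.6 and 19.7 RPKM, with FGF9 16.2, 22.4 and 18.8 RPKM, and with FGF8b plus BAY-876 12.4, 14.1 and 14.2 RPKM. The BAY-876 libraries lay below all others, and FGF9 overlapped both FGF8b and control. Ccnd3 fell by 0.47 (SE 0.09) from FGF8b to FGF8b plus BAY-876 (adjusted p = 0.000464). FGF8b and control differed by -0.19 (95% interval -0.39 to 0.00), which did not pass (adjusted p = 0.0807). It passed after trimmed-mean scaling (-0.27, adjusted p = 0.0171), after GC correction (-0.16, adjusted p = 0.0043), without FGF9 replicate 1 (adjusted p = 0.0352) or replicate 2 (adjusted p = 0.0277), and with only these 2 groups fitted (adjusted p = 0.0374). The FGF9 difference of -0.19 (adjusted p = 0.0807) became -0.31 without FGF9 replicate 2 (adjusted p = 0.00341), -0.28 after trimmed-mean scaling (adjusted p = 0.0152) and -0.22 after GC correction (adjusted p = 0.000292). Ccnd3 shares 21% of its 31-base words with the opposite-strand gene Bysl and with Ccnd3-ps.

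Set side by side per transcript length, the 3 D cyclins changed in sum and in make-up. Their summed level was 46.9 ± 2.02 RPKM (SD, n = 3) in control, 33.9 ± 0.57 with FGF1, 93.1 ± 2.43 with FGF8b, 105.5 ± 2.33 with FGF9 and 139 ± 1.94 with FGF8b plus BAY-876. Ccnd3 was the largest share in control, 46.4% ± 1.54, and with FGF1, 68.0% ± 0.62. Ccnd1 made up 16.5% ± 0.97 of the sum in control and 7.61% ± 1.11 with FGF1. It was 40.01% ± 2.26 with FGF8b, 45.2% ± 1.77 with FGF9 and 61.7% ± 0.99 with FGF8b plus BAY-876, where Ccnd3 held 9.77% ± 0.84. Shares of Ccnd2 ran from 24.4% with FGF1 to 39.6% with FGF8b. These shares use 1 transcript line per gene. The shared words of Ccnd1 and Ccnd3 named above, and 5.14% for Ccnd2, were counted over all protein-coding transcripts of each gene. Whether the chosen lines carry shared reads was not tested.

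**Figure D2:**
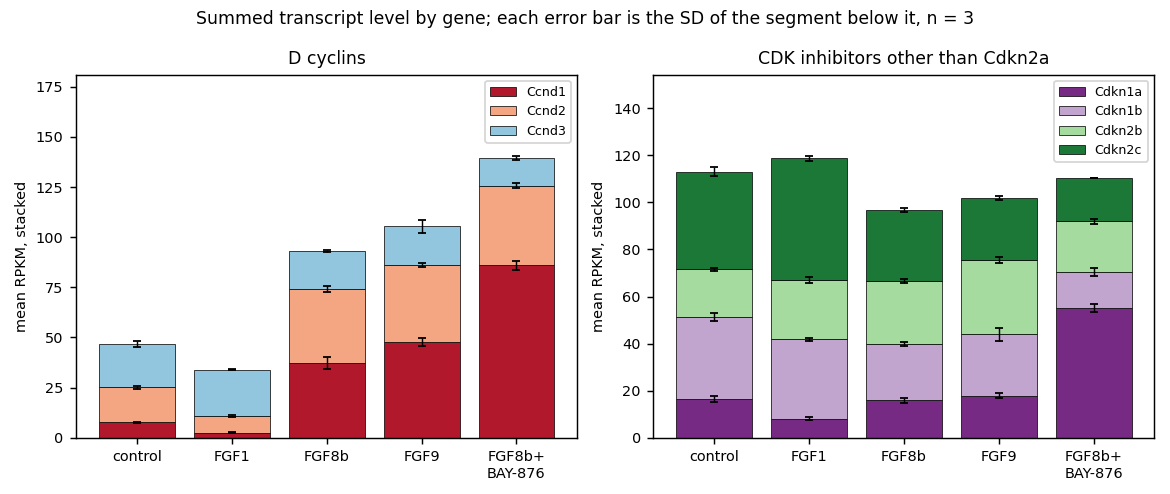
Mean RPKM per group, stacked by gene, for the D cyclins (left) and for the CDK inhibitors other than Cdkn2a (right), with bars starting at 0 and error bars giving the SD of the segment below each (n = 3). The D cyclin stack reaches 33.9 RPKM with FGF1 and 139 with FGF8b plus BAY-876, and Cdkn1a is the largest inhibitor segment only in the latter group.

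The E cyclins, which activate CDK2 at the entry into S phase, were higher than control in all 4 treated groups. Ccne1 measured 9.18, 8.48 and 9.16 RPKM in control and 11.96, 11.93 and 11.83 RPKM with FGF1. It measured 12.1, 10.1 and 11.2 RPKM with FGF8b, 10.4, 10.2 and 10.6 RPKM with FGF9, and 15.3, 17.8 and 16.2 RPKM with FGF8b plus BAY-876. No treated library fell to the control range, and the BAY-876 libraries lay above all others. Ccne1 rose by 0.40 (SE 0.07) with FGF1 (adjusted p = 0.000466), by 0.30 with FGF8b (adjusted p = 0.00188) and by 0.21 with FGF9 (adjusted p = 0.0189). The FGF9 rise was lost after trimmed-mean scaling (0.12, adjusted p = 0.138), with voom on recovered reads (adjusted p = 0.0585), and without control replicate 2 (adjusted p = 0.0773) or FGF9 replicate 3 (adjusted p = 0.0609). BAY-876 added a rise of 0.54 (SE 0.07) to FGF8b (adjusted p = 1.06e-05). The chosen Ccne1 line is a partial transcript of 608 bases with 163 to 420 reads per library. All 6 lines of the gene rose with BAY-876 by 0.54 to 0.69. Against control they rose by 0.40 to 0.47 with FGF1, 0.14 to 0.30 with FGF8b and 0.08 to 0.31 with FGF9. The chosen line thus gave the largest FGF8b rise.

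Ccne2 measured 13.0, 18.8 and 14.6 RPKM in control and 27.1, 24.2 and 20.03 RPKM with FGF1. It measured 19.5, 27.1 and 21.7 RPKM with FGF8b, 20.6, 20.7 and 20.4 RPKM with FGF9, and 21.2, 20.2 and 19.1 RPKM with FGF8b plus BAY-876. Each treated group lay above control, and the 4 treated groups overlapped one another. Ccne2 rose by 0.61 (SE 0.13) with FGF1 (adjusted p = 0.0019), by 0.55 with FGF8b (adjusted p = 0.00185) and by 0.42 with FGF9 (adjusted p = 0.0112). Without control replicate 1 the FGF9 rise was 0.31 (adjusted p = 0.0645). Addition of BAY-876 gave -0.16 (95% interval -0.44 to 0.12), which did not pass (adjusted p = 0.31). The chosen line of Ccne2 is also partial, 432 bases with 196 to 418 reads per library, and 609 exon bases of the gene overlap Ints8 on the opposite strand.

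**Figure D3:**
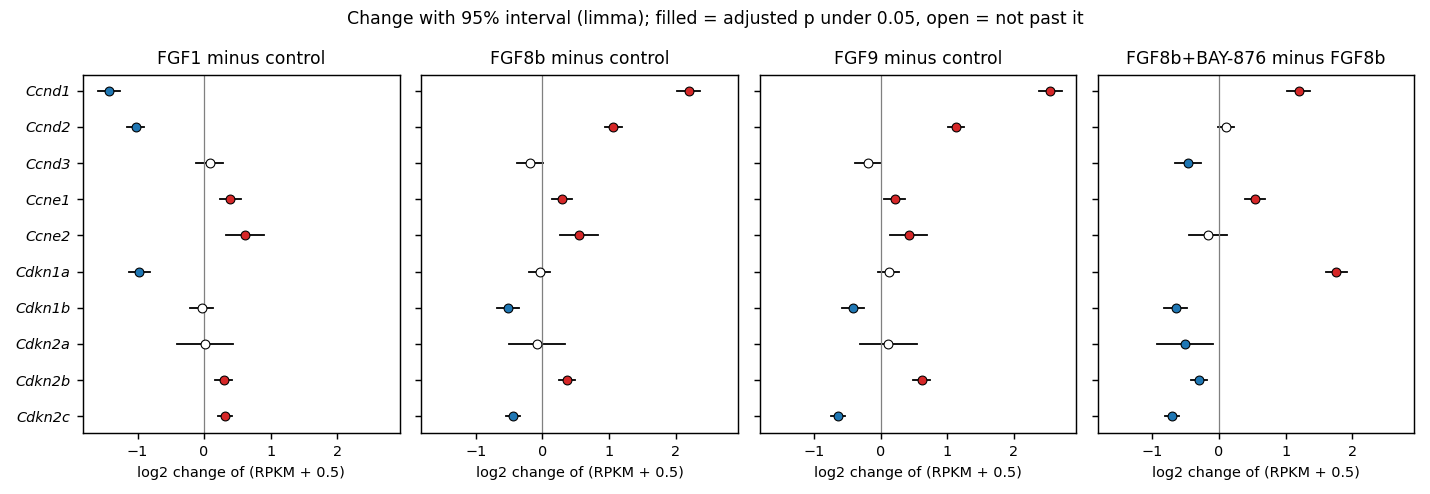
Log2 change of RPKM + 0.5 (horizontal axis) for each gene in 4 comparisons, with its 95% interval from limma; filled points passed an adjusted p of 0.05, red for higher and blue for lower, and open points did not. Ccnd1 moves from -1.43 with FGF1 to 2.19 with FGF8b, and Cdkn1a stands at 1.76 when BAY-876 was added to FGF8b.

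Cdkn1a, which encodes the CIP/KIP inhibitor p21 and is a standard p53 target, fell with FGF1 and rose with BAY-876. Control libraries held 17.7, 16.1 and 15.4 RPKM and FGF1 libraries 7.49, 8.04 and 8.84 RPKM. Its level was 16.02, 14.8 and 16.98 RPKM with FGF8b, 17.1, 19.1 and 17.3 RPKM with FGF9, and 53.7, 55.0 and 57.0 RPKM with FGF8b plus BAY-876. FGF1 lay below and BAY-876 above every other library, whereas FGF8b and FGF9 overlapped control. Cdkn1a fell by 0.97 (SE 0.07) with FGF1 (adjusted p = 7.73e-08). FGF8b differed from control by -0.04 (95% interval -0.20 to 0.12, adjusted p = 0.662) and FGF9 by 0.12 (95% interval -0.04 to 0.28, adjusted p = 0.169), and neither passed. From FGF8b to FGF8b plus BAY-876 it rose by 1.76 (SE 0.07, adjusted p = 3.26e-11), and its 7 lines rose by 1.76 to 1.91. Among the 10 members this was the largest rise in that comparison. The gene lies at chr17:29090976-29100727 (GRCm38, plus strand), and 12.8% of its 31-base words occur in other genes.

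Cdkn1b, which encodes the CIP/KIP inhibitor p27, ran the other way under BAY-876. It was at 34.6, 33.0 and 36.4 RPKM in control and 33.3, 33.6 and 34.5 RPKM with FGF1. The FGF8b libraries gave 23.1, 24.7 and 24.5 RPKM, the FGF9 libraries 22.9, 28.7 and 26.3 RPKM, and the FGF8b plus BAY-876 libraries 13.6, 15.5 and 16.6 RPKM. Control and FGF1 overlapped at the top, FGF8b and FGF9 overlapped below them, and BAY-876 lay below both. Cdkn1b fell by 0.52 (SE 0.08) with FGF8b (adjusted p = 3.88e-05) and by 0.42 with FGF9 (adjusted p = 0.000296), and a further 0.65 when BAY-876 was added to FGF8b (-0.65, adjusted p = 5.40e-06). FGF1 gave -0.04 (95% interval -0.21 to 0.14), which did not pass (adjusted p = 0.78). As a share of the summed level of both CIP/KIP genes, Cdkn1a was 32.1% ± 2.16 (SD, n = 3) in control, 19.3% ± 1.01 with FGF1, 39.8% ± 2.02 with FGF8b, 40.8% ± 1.66 with FGF9 and 78.4% ± 1.25 with FGF8b plus BAY-876. Their sum was 51.1 ± 1.74 RPKM in control, 40.04 ± 1.23 with FGF8b and 70.4 ± 3.16 with FGF8b plus BAY-876.

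Cdkn2c, which encodes the INK4 inhibitor p18, rose with FGF1 and fell with the other treatments. The control libraries gave 42.3, 39.3 and 42.9 RPKM and the FGF1 libraries 52.96, 51.29 and 50.69 RPKM. It fell to 29.9, 29.9 and 31.4 RPKM with FGF8b, 25.5, 27.1 and 26.8 RPKM with FGF9, and 18.4, 18.6 and 18.5 RPKM with FGF8b plus BAY-876. The 5 groups did not overlap, in the reverse of the Ccnd1 order. Cdkn2c rose by 0.31 (SE 0.05) with FGF1 (adjusted p = 0.00012), and fell by 0.44 with FGF8b (adjusted p = 1.09e-06), by 0.64 with FGF9 (adjusted p = 1.36e-08) and by 0.70 from FGF8b to FGF8b plus BAY-876 (adjusted p = 1.03e-08). Over the 15 libraries its level correlated with that of Ccnd1 at r = -0.965, a description across 5 groups that share these treatments. All 5 lines of Cdkn2c went in the same directions, but the smallest falls among them were 0.01 with FGF8b and 0.07 with FGF9 (-0.01 and -0.07). None of its 31-base words was found in another gene.

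Cdkn2b, which encodes the INK4 inhibitor p15, a known target of TGF-beta signalling, was raised by each FGF alone. It stood at 21.1, 19.9 and 20.3 RPKM in control, 24.4, 26.7 and 24.5 RPKM with FGF1 and 26.5, 25.6 and 27.4 RPKM with FGF8b. FGF9 libraries held 30.5, 33.1 and 31.1 RPKM, and FGF8b plus BAY-876 libraries 22.4, 20.3 and 21.8 RPKM. FGF9 lay above all others, and the BAY-876 libraries overlapped control. Cdkn2b rose by 0.29 (SE 0.06) with FGF1 (adjusted p = 0.000914), by 0.37 with FGF8b (adjusted p = 3.88e-05) and by 0.61 with FGF9 (adjusted p = 1.36e-07), and fell by 0.30 when BAY-876 was added to FGF8b (adjusted p = 0.000383). FGF8b plus BAY-876 and control differed by 0.07 (95% interval -0.05 to 0.19), which did not pass (adjusted p = 0.282). Cdkn2b at chr4:89306299-89311039 and Cdkn2a at chr4:89274471-89294653 are neighbours on the minus strand of GRCm38.

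Cdkn2a was the most abundant member, and its relative spread was the widest of the 10 in control, FGF9 and FGF8b plus BAY-876 (coefficient of variation 20.1%, 36% and 18.3%), but only 3.04% with FGF1 and 1.2% with FGF8b. Control libraries held 208, 168 and 139 RPKM, FGF1 libraries 164, 173 and 173 RPKM, and FGF8b libraries 161, 158 and 161 RPKM. FGF9 libraries held 131, 267 and 178 RPKM, and FGF8b plus BAY-876 libraries 89.5, 126 and 125 RPKM. The FGF groups overlapped control, and the BAY-876 libraries lay below all others. None of the 3 FGFs gave a change that passed: FGF1 0.01 (95% interval -0.41 to 0.43, adjusted p = 0.979), FGF8b -0.08 (-0.50 to 0.34, adjusted p = 0.741) and FGF9 0.12 (-0.30 to 0.54, adjusted p = 0.618). From FGF8b to FGF8b plus BAY-876 it fell by 0.51 (SE 0.20, adjusted p = 0.0376). This call was lost without any one FGF8b library (adjusted p = 0.071 to 0.0789), without BAY-876 replicate 1 (-0.35, adjusted p = 0.166), with no filter on low values (adjusted p = 0.0846), after trimmed-mean scaling (-0.42, adjusted p = 0.0817) and with lines summed (-0.46, adjusted p = 0.0739).

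Libraries of a group also differed in the level of GC-rich genes. The chosen Cdkn2a transcript, an ARF transcript of 895 bases, has a GC content of 60.2%. The 558 tested genes of at least 60% GC deviated from their group mean by a median of 0.23 (log2) in FGF9 replicate 2 and -0.23 in FGF9 replicate 1, where Cdkn2a deviated by 0.54 and -0.49. In control replicates 1 and 3 the GC-rich genes deviated by 0.14 and -0.10, and Cdkn2a by 0.29 and -0.28. In FGF8b replicate 2 the GC-rich genes deviated by -0.11 and Cdkn2a by -0.02. Cdkn1b, at 43.1% GC, deviated by 0.15 and -0.17 in FGF9 replicates 2 and 1. Cdkn2c, at 58.0% GC, deviated by 0.03 and -0.05 in FGF9 replicates 2 and 1. For Cdkn1b and Cdkn2c the GC content is that of the longest protein-coding GENCODE transcript, not of the chosen line. Without FGF9 replicate 2 the FGF9 difference of Cdkn2a from control was -0.15 (adjusted p = 0.432), and after GC correction it was -0.02 (SE 0.12, adjusted p = 0.905). The part of GC content in the spread of Cdkn2a was not tested.

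**Figure D4:**
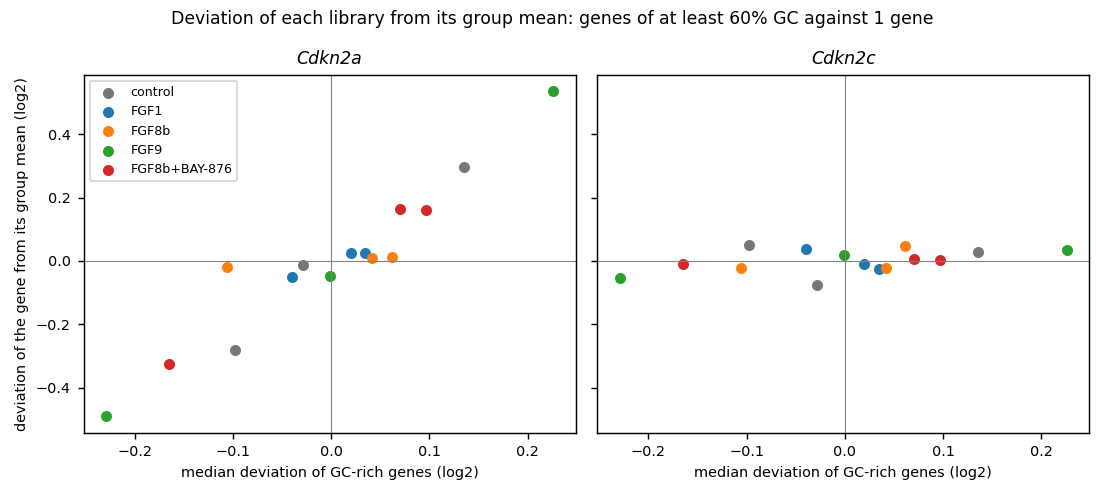
Each point is a library: the horizontal axis gives the median log2 deviation of the 558 tested genes of at least 60% GC from their group mean, the vertical axis the log2 deviation of Cdkn2a (left) or Cdkn2c (right), and colours give the 5 groups. FGF9 replicate 2 stands at 0.23 and 0.54 in the Cdkn2a panel, while Cdkn2c stays between -0.08 and 0.05.

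The RefSeq lines of the ARF and INK4a transcripts share the later exons, so the reads of one minus the other leave mainly the difference between their first exons. Any difference between their 3′ ends also enters and was not tested. Reads on the ARF line exceeded those on the INK4a line in 15 of 15 libraries, by 375 to 1363 reads. Relative to all reads on the ARF line, the excess was 16.1% ± 1.13 (SD, n = 3) in control, 18.5% ± 1.09 with FGF1, 19.7% ± 1.26 with FGF8b, 18.6% ± 4.44 with FGF9 and 13.1% ± 2.57 with FGF8b plus BAY-876. The lowest FGF8b library gave 18.3% and the BAY-876 libraries 11.2% to 16%, with no overlap. In this share the BAY-876 libraries did overlap control (14.8% to 16.8%) and FGF9 (13.7% to 22.5%). Scaled to library depth instead, the excess was 12.8, 12.7 and 13.4 reads per M reads in the BAY-876 libraries. It was 20.8 to 27.5 in control, 27 to 28.8 with FGF1, 26.4 to 29.6 with FGF8b and 26.3 to 32.8 with FGF9. By that measure the BAY-876 libraries lay below every other library, a difference that was not tested. Within FGF9 the excess was 22.5% in replicate 1 and 13.7% in replicate 2, where GC-rich genes deviated by -0.23 and 0.23. The part of GC content in these shares was not tested. The ARF first exon, the start printed above, is also the longer, 320 against 207 bases, and these shares are not per length.

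FGF1 changed 7 of the 10 members, 4 higher and 3 lower, against a background of 34.4% of all tested genes (19.3% higher and 15.1% lower). Higher were Ccne1, Ccne2, Cdkn2b and Cdkn2c, and lower were Ccnd1, Ccnd2 and Cdkn1a. The members' median change was 0.04 and that of all tested genes 0.02. Later in the cycle, all 16 genes of the list of later cyclins and mitotic genes rose with FGF1 (median 0.57), among them Aurkb, a mitotic kinase (0.71, adjusted p = 2.45e-06), and Top2a, a topoisomerase of dividing cells (0.69, adjusted p = 1.44e-07). Of 22 E2F target genes of S phase entry, 13 rose and 0 fell, with Cdc6, a replication licensing factor, higher by 0.62 (adjusted p = 4.81e-06). Of 21 tested genes on the list of p53 and its targets, 2 rose and 13 fell, including Trp53inp1 (-1.19, adjusted p = 5.09e-08) and the receptor gene Eda2r (-1.58, adjusted p = 3.05e-08). Cdkn1a, itself a p53 target and not on that list, fell by 0.97 in the same comparison. Among 16 G1 kinases, pocket proteins and E2F factors, 7 rose and 1 fell, with the repressor E2f7 higher by 0.81 (adjusted p = 7.10e-05). Other inhibitors included Cdkn2d, the INK4 gene of p19INK4d, which rose by 0.67 (adjusted p = 5.71e-06), and Cdkn3, a CDK phosphatase, which rose by 0.64 (adjusted p = 7.58e-07).

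FGF8b changed 7 members, 5 higher and 2 lower, where 64.4% of all tested genes passed (37.8% higher and 26.6% lower). FGF9 likewise changed 7, 5 higher and 2 lower, where 65.7% passed (38.7% higher and 27% lower), and both comparisons share the control libraries. In each, Ccnd1, Ccnd2, Ccne1, Ccne2 and Cdkn2b were higher and Cdkn1b and Cdkn2c lower. A share of 7 in 10 lies near both backgrounds. The members' median was 0.13 with FGF8b and 0.16 with FGF9, and that of all tested genes 0.08 and 0.09. Of the 22 E2F targets 17 rose and 0 fell with FGF8b, with Cdc45, a part of the replicative helicase, at 0.88 (adjusted p = 4.36e-09), and the count was the same with FGF9. Later cyclins and mitotic genes were split with FGF8b, 8 higher and 3 lower of 16, with Bub1, a spindle checkpoint kinase, at 0.63 (adjusted p = 8.04e-07) and Cdc20, an activator of the anaphase-promoting complex, at -0.69 (adjusted p = 1.35e-05). After trimmed-mean scaling that split was 5 higher and 4 lower. Among the G1 kinases, pocket proteins and E2F factors 12 of 16 rose and 1 fell with each of FGF8b and FGF9, and Rbl2, the pocket protein p130, fell by 1.03 with FGF9 (adjusted p = 1.11e-07). Cks1b, a cofactor of p27 degradation, rose by 0.80 with FGF8b, from 59.3 ± 5.58 to 103 ± 1.41 RPKM (n = 3, adjusted p = 2.42e-08).

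FGF8b was also compared with FGF1 directly. In this comparison 3 members were higher (Ccnd1, Ccnd2 and Cdkn1a) and 3 lower (Ccnd3, Cdkn1b and Cdkn2c), where 59.9% of all tested genes passed (33.3% higher and 26.6% lower). Ccnd1 was higher by 3.62 (SE 0.08, adjusted p = 1.275e-14), Ccnd2 by 2.10 (adjusted p = 9.645e-14) and Cdkn1a by 0.93 (adjusted p = 3.24e-08) with FGF8b. Ccnd3 was lower (-0.27, adjusted p = 0.0184), a call lost with lines summed (adjusted p = 0.0971) and without FGF8b replicate 1 (adjusted p = 0.0519) or 2 (adjusted p = 0.0538). Of the later cyclins and mitotic genes, 0 of 16 were higher and 15 lower, including Cdc20 (-1.08, adjusted p = 1.19e-07). FGF9 against FGF1 gave 4 members higher (the same 3 and Cdkn2b) and 4 lower (Ccnd3, Ccne1, Cdkn1b and Cdkn2c), where 61.9% of all genes passed (34.7% higher and 27.2% lower). Ccnd1 was higher by 3.97 and Ccnd2 by 2.16 there, from the same FGF1 libraries. The Ccne1 difference (-0.19, adjusted p = 0.0327) was lost with voom on recovered reads (adjusted p = 0.0761) and without any one FGF1 library or FGF9 replicate 1 or 2 (adjusted p = 0.063 to 0.0794). Ccnd3 (-0.27, adjusted p = 0.0182) was lost with lines summed (adjusted p = 0.0728) and without FGF9 replicate 1 (adjusted p = 0.108).

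FGF9 and FGF8b differed in 0 of 10 members in limma, where 0.296% of all tested genes passed (0.202% higher and 0.0937% lower), and in 1 member, Ccnd1, with voom. Unadjusted p was under 0.05 for 4 members, Ccnd1, Cdkn1a, Cdkn2b and Cdkn2c, and for 977 of all tested genes (7.04%). Libraries of both groups did not overlap for these 4, as for 10.8% of all tested genes. Cdkn2b was higher with FGF9 by 0.25 (95% interval 0.12 to 0.37, adjusted p = 0.126), and Cdkn2c was at -0.20 (95% interval -0.30 to -0.09, adjusted p = 0.17). If heparin was given with FGF9 alone, as the sample labels but not the series text have it, ligand and heparin cannot be told apart here. The same then holds for FGF9 against control and against FGF1. As heparin and time of the controls are not stated, their part in any comparison with control cannot be told apart from that of the agents.

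BAY-876 added to FGF8b changed 8 members, 3 higher and 5 lower, where 57.3% of all tested genes passed (22.5% higher and 34.8% lower). The higher were Ccnd1, Ccne1 and Cdkn1a, and the lower Ccnd3, Cdkn1b, Cdkn2a, Cdkn2b and Cdkn2c. Over all genes 3117 were higher and 4824 lower, and after trimmed-mean scaling 3973 and 3975, with 4 members higher and 4 lower. The members' median change was -0.23, against -0.08 for all tested genes. Of the 21 tested genes on the p53 list, 15 rose and 2 fell (median 0.68), including Trp53inp1 from 5.19 ± 0.26 to 21.4 ± 1.61 RPKM (n = 3, 1.95, adjusted p = 6.79e-11) and Aen, an apoptosis-enhancing nuclease (1.55, adjusted p = 1.96e-09). E2F targets were split, 8 higher and 13 lower of 22 (8 and 9 after trimmed-mean scaling), with Rfc4, a clamp loader subunit, lower (-0.85, adjusted p = 1.67e-07). All 4 of the other CDK inhibitor relatives that passed were lower, among them Cdkn3 (-0.56, adjusted p = 1.47e-06) and Cdkn1c, the CIP/KIP gene of p57, at 0.40 ± 0.16 against 1.20 ± 0.28 RPKM (-0.92, adjusted p = 0.000302). Of 19 activators and turnover factors 3 rose and 9 fell, with Mnat1, a subunit of the CDK-activating kinase, at -0.78 (adjusted p = 9.43e-08). That split was 5 and 8 after trimmed-mean scaling and 6 and 8 after GC correction. In 12 preadipocyte and fibroblast markers 2 rose and 10 fell (median -1.44), with Dcn going from 806 ± 16.6 to 65.2 ± 7.9 RPKM. Their summed level was 2445 to 2816 RPKM with FGF8b and 1747 to 1883 with FGF8b plus BAY-876, against 4296 to 4912 in control. Most of the sum with BAY-876 was Vim, which rose, at 1457 to 1580 RPKM against 944 to 1202 with FGF8b. The sum therefore understates the fall of the other markers. Marker changes were not limited to BAY-876. Against control, 7 of the 12 markers were lower and 4 higher with FGF8b (median -0.76), with Ly6a at -4.25. With FGF9 7 were lower and 3 higher (median -0.66), with Ly6a at -4.49, and with FGF1 5 were lower and 2 higher (median -0.02). Dcn stood at 467 to 487 RPKM in control, below its FGF8b level. The part of these marker changes in the members' values was not tested.

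**Figure D5:**
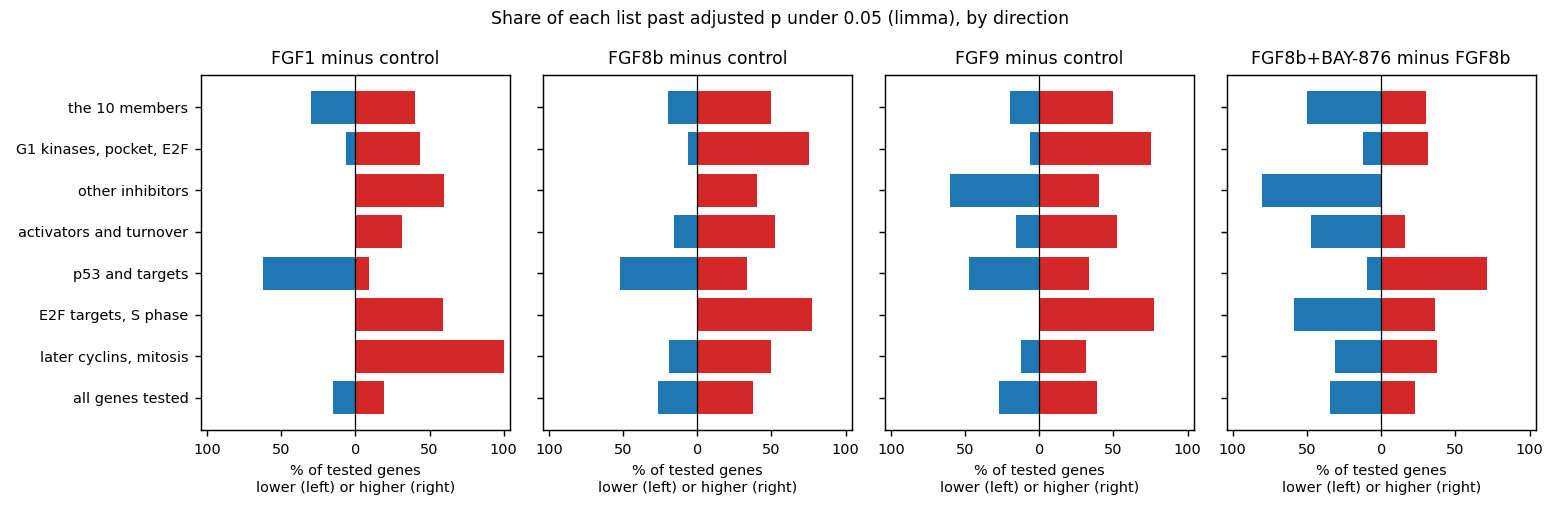
Share of the tested genes of each list (rows) that passed an adjusted p of 0.05 in limma, to the left for lower and to the right for higher, in 4 comparisons. All 16 later cyclins and mitotic genes are higher with FGF1, and 15 of the 21 tested genes of p53 and its targets are higher when BAY-876 was added to FGF8b.

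Set against untreated cells, FGF8b plus BAY-876 changed 9 members, 5 higher and 4 lower, where 72.7% of all tested genes passed (36.8% higher and 35.9% lower). Ccnd1 was higher by 3.39, Cdkn1a by 1.72, Ccnd2 by 1.17, Ccne1 by 0.84 and Ccne2 by 0.39. Cdkn1b was at -1.17, Cdkn2c at -1.14, Ccnd3 at -0.66 and Cdkn2a at -0.59. Ccne2 (adjusted p = 0.0154) was lost without control replicate 1 (adjusted p = 0.0859), and Cdkn2a (adjusted p = 0.014) without control replicate 1 (adjusted p = 0.0737) or BAY-876 replicate 1 (adjusted p = 0.0755). Ccnd1 and Cdkn1a were thus high in the same libraries, and Gadd45a, a stress-induced partner of p21, was higher by 3.25 there (adjusted p = 1.92e-15) and by 2.94 with FGF8b alone (adjusted p = 1.48e-14). Gadd45a is on the p53 list, of which 7 genes rose and 11 fell with FGF8b (median -0.27).

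Over the 15 libraries some members ran closely together, and these correlations describe 5 groups of libraries, not independent points. Ccnd1 and Ccnd2 correlated at r = 0.972, Ccnd3 and Cdkn1b at 0.954, and Cdkn1b and Cdkn2c at 0.925, while Cdkn1a and Cdkn2c correlated at -0.909. Ccnd1 and Ccne2 stood near 0, at 0.03. Among all tested genes, those most like Ccnd1 were Arhgdib (r = 0.990), D19Bwg1357e (0.990) and Btc, an EGF-family ligand (0.988). The closest to Ccnd2 were Fam129a (0.996), Ankrd1 (0.987) and Shmt1 (0.987), and to Cdkn1a Shc2 (0.989), Mcoln1 (0.988) and Cmtm3 (0.987). Cdkn1b ran with Mfap2, Col1a1 and Pdlim4 (each 0.987), where the collagen gene Col1a1 averaged 433 RPKM in control and 9.66 with FGF8b plus BAY-876. Cdkn2c ran with Zfp41 (0.995), Lbp (0.994) and Pcdh18 (0.993).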

How the data were processed

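The deposited table held 168326 transcript lines and 15 value columns with decimal commas and no named unit. Its values behave as RPKM: when multiplied by line length, 94.12% to 95.03% of the low values of a library fell on multiples of a common step (tolerance 0.05, and 10% by chance), so the authors' deposited values were read as RPKM. The step of a library also gave its depth. Whole reads were then found for all 13869 tested genes (100%, tolerance 0.02). Line lengths were searched for in this step, so that share is a weak check. Of 3476 lengths that could be compared, 90.85% equalled the annotated length. Lines of one gene share reads, and 82 lines belong to the members. The submitters' processing notes name CASAVA and bcl2fastq. Neither aligner nor genome build nor annotation is given in the sources used here. Libraries were made with TruSeq RNA Sample Prep v2, per the labels' protocols.

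A planned branch for counts was not needed. Levels were log2(RPKM + 0.5), left unscaled, and a gene was tested if 3 or more libraries reached 0.5 RPKM. limma 3.58.1 in R 4.3.3 (empirical Bayes with trend, 5 groups, no block) gave changes, and p-values were adjusted by Benjamini-Hochberg over all tested genes within each of 8 comparisons, with a threshold of 0.05 for a call. The fit was tested on simulated data. Alternatives were other pseudocounts (0.1 and 1), filters, trimmed-mean scaling, summed lines, a replicate block, voom on recovered reads, only the groups compared, each library left out, and a correction for GC content in 20 bins, the last chosen after seeing the data. GC content, taken from the longest GENCODE transcript of a gene, protein-coding where there was one, was known for 90.8% of tested genes.

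The members and the gene lists were chosen with earlier results of these data known. From each list, named genes were taken from the 2 with the largest called change per comparison, without overlap between groups and with a mean of at least 1 RPKM in a group, at most 4 per list. Genes most like a member were the 3 with the highest Pearson correlation, for members spanning at least 1 in log2 group means, predicted gene models left out. Positions are from GENCODE vM21 on GRCm38. Macrophage markers summed to 5.32 to 9.28 RPKM, endothelial to 0.475 to 8.98, skeletal muscle to at most 0.294 and mature fat cell markers, mostly Lpl, to 12.8 to 94.7 across libraries.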

Additional observations from a re-analysis of the deposited data

How the results depend on the processing

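Of 80 tests of a member in a comparison, 52 passed, 44 of these passed under all 25 alternatives, and 0 reversed while passing. The 8 others are given with their values in the report, and of 28 tests that did not pass, 5 passed under some alternative, of which Ccne1 in FGF8b against FGF1 (-0.10) did so with summed lines (-0.20, adjusted p = 0.0103). Total counts of members and of genes called stayed within 1.5 times of the reported ones under every alternative, except for FGF9 against FGF8b. By direction, the members lower in FGF9 against FGF1 went from 4 to 2 without FGF9 replicate 1. In FGF9 against FGF8b 41 genes were called, against 27 with a pseudocount of 0.1, 62 with voom on recovered reads, 0 with only these groups fitted, and 6 to 44 with each library left out, and the members called were 0, against 1 with voom and 0 to 1 with each library left out. The causes were not tested. Fits on 2 groups or without a library also rest on fewer samples, and the part of that was not tested either. Differences that did not pass changed sign as follows: Cdkn1b in FGF1 against control to 0.006 with summed lines, Cdkn2a in FGF1 against control to -0.027 after trimmed-mean scaling, -0.011 with summed lines and -0.030 after GC correction, and Cdkn2a in FGF9 against control to -0.017 after GC correction. Ccne2 in BAY-876 plus FGF8b against FGF8b went to 0.016 after GC correction, and Ccnd3 in FGF9 against FGF8b to -0.005 after trimmed-mean scaling, -0.019 with summed lines and -0.063 after GC correction. With libraries left out, the sign also varied for Cdkn2a in FGF1 (-0.132 to 0.156), FGF8b (-0.221 to 0.067) and FGF9 (-0.152 to 0.362) against control, FGF9 against FGF8b (-0.071 to 0.442) and FGF9 against FGF1 (-0.16 to 0.353), Cdkn1a in FGF8b against control (-0.085 to 0.017), Ccnd3 in FGF9 against FGF8b (-0.117 to 0.11) and Ccne2 in FGF8b against FGF1 (-0.192 to 0.039).

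The labels do not say whether replicate numbers pair libraries. Deviations of same-numbered libraries correlated above 0.1 in 11 of 30 pairs, between -0.443 and 0.534. These correlations cannot decide the question, because differences in GC-rich genes between libraries also enter the deviations. With the numbers as a replicate block, 4850 genes were called for FGF1 against control in place of 4772, and the members called were as many as without it in every comparison. The fewest reads stood behind Ccnd1 with FGF1 and behind both partial E cyclin lines, which limits their precision.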
